A study of Mus musculus with 6 samples.

Results

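The genes described here are the 5 muscarinic acetylcholine receptors of the mouse, Chrm1 to Chrm5, and 5 enzymes and transporters. These are the enzymes Ache, Bche and Chat, the choline transporter Slc5a7 and the acetylcholine transporter Slc18a3. They are 10 of the 22180 genes tested. A gene was taken where the array's annotation paired a probe set with its symbol alone, and the probe set standing for it was chosen by its mean level over all 6 arrays, the brightest being kept. That choice mattered for Chrm1 alone, which had 2 such probe sets. No filter on low values was applied, so all 10 genes were tested.

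The cells were a primary culture of hippocampus dissected from mouse embryos at E18, a mixture of young neurons and glia. All cultures were infected with AAV1/2, an adeno-associated virus used as a gene carrier, 7 days after seeding, and RNA was isolated 7 days after infection. In 3 samples the virus brought a knockdown construct against Diras2, a small GTPase of the Ras family found in brain. In the 3 control samples it brought a scrambled sequence. The labels call the samples of each group numbered biological replicates. They name no strain, no second knockdown construct and no separate litters or dissections. The p-values therefore reflect the spread of these samples, which may be technical in part. With no second construct, an effect of Diras2 loss cannot be told apart from a side effect of the knockdown construct. The question of the design is which genes change with the Diras2 knockdown.

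Acetylcholine is made from choline and acetyl-CoA by choline acetyltransferase (Chat), packed into synaptic vesicles by the transporter Slc18a3 and broken down outside the cell by acetylcholinesterase (Ache), after which the choline is taken back up by Slc5a7. Muscarinic receptors are its slow, G protein-coupled receptors. Chrm1, Chrm3 and Chrm5 act through Gq and phospholipase C, which among other things closes the Kcnq potassium channels of the M-current, whereas Chrm2 and Chrm4 act through Gi and Go, which slow adenylyl cyclase and open inwardly rectifying Kcnj channels. In the intact brain the hippocampus gets most of its acetylcholine from fibres whose cell bodies lie in the septum.

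The stretches just upstream of the transcription start are shown for the 4 genes whose values differed between the groups in at least one of the fits below. They are RefSeq sequences on build GRCm38.p6, each 250 bases, written 5′ to 3′ in the direction of the gene. Capitals mark matches, on either strand, to any of 7 common promoter motifs. These were the cyclic AMP response element TGACGTCA, the AP-1 motif TGANTCA, the E-box CANNTG, the Egr motif GCGGGGGCG, the GC box GGGCGG, the CCAAT box and the TATA box TATAAA.
Chrm2, chr6:36387834-36388083, plus strand: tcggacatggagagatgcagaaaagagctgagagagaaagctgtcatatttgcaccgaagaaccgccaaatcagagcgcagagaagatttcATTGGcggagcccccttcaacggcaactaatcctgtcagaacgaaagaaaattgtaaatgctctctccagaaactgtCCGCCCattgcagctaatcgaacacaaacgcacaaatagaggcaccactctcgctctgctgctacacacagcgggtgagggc
Chrm5, chr2:112480818-112481067, minus strand: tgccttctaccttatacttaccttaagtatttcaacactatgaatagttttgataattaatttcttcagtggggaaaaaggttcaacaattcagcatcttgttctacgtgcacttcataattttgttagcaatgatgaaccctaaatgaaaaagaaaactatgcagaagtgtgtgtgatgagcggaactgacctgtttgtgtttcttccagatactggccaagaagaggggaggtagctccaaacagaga
Chrm3, chr13:10360804-10361053, minus strand: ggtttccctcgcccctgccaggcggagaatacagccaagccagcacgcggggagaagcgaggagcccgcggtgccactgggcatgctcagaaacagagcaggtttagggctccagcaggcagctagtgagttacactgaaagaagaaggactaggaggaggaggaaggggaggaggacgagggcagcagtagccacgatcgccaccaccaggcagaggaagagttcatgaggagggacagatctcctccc
Ache, chr5:137288004-137288253, plus strand: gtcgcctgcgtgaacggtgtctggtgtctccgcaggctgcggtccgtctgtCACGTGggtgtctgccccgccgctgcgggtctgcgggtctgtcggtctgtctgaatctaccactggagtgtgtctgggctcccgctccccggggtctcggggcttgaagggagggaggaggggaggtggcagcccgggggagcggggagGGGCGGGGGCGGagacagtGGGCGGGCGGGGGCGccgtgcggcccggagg

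A promoter sequence was matched for 9 of the 10 genes, Chrm1 being the one without. The Ache stretch held 2 matches to the Egr motif, which overlap GC boxes, and this motif occurs in 2.57% of 32851 promoter windows of that length. Chrm2 held 1 GC box (in 32.7% of windows) and 1 CCAAT box (in 33.8%), and Ache also 1 E-box (in 66.2%). The Chrm3 and Chrm5 stretches matched none of the 7 motifs, and neither the cyclic AMP response element (in 1.55% of windows) nor the AP-1 motif (in 6.75%) was found in any of the 9. The E-box, for its part, was found in the Chrm4, Bche, Chat, Slc5a7 and Slc18a3 windows as well, and the only TATA box was in that of Slc5a7. Such a match is a description of the letters and not a binding site.

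Values are log2 expression levels made with RMA, in which 1 unit is a doubling. Diras2 was lower in all 3 knockdown arrays, at 7.17, 6.23 and 6.08, against 10.17, 10.17 and 9.76 in the controls. The genes called by limma at a Benjamini-Hochberg adjusted p under 0.05 made up 7.80% of all genes tested, 4.17% higher and 3.64% lower. The RNA had integrity numbers of 9, 9.3 and 9.2 for knockdown, against 9.2, 9 and 8.8 for control. The culture was checked against cell type markers: pan-neuronal genes averaged 11.15 to 11.42 in the knockdown arrays and 11.24 to 11.57 in the controls, and the microglia and endothelial lists averaged under 5 in both groups. Singly, Pdgfra of the oligodendrocyte list was called higher (log2 difference 2.80, adjusted p = 0.0104) and the pan-neuronal Snap25 lower (-0.51, 0.0471). Each was the only called gene of its list, 1 of 7 and 1 of 6 measured, against 7.80% of all genes. Of the 7 oligodendrocyte genes 3 differed below 0, and of the 6 pan-neuronal genes 2 differed above 0. The part of Pdgfra and Snap25 in the results below was not tested. Deviations from the group means correlated at 0.43, 0.12 and 0.37 for knockdown and control arrays of replicates 1, 2 and 3. For arrays of unlike number the correlations were -0.38 to 0.06. On the ground of this pairing, found in these same data and weak for replicate 2, a second fit took the replicate number as a block. Under it 6.05% of genes were called higher and 5.64% lower.

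Among the 10 cholinergic genes, the receptors Chrm5 and Chrm2 fell and none rose, while 8 did not pass the test by limma. Of all genes tested, 7.80% were called by the same fit, 4.17% higher and 3.64% lower. At an unadjusted p under 0.05 there were 1 higher, Chrm3, and 3 lower, Chrm2, Chrm5 and Ache, where 10.9% of all genes tested were higher and 10% lower by that rule. The groups of arrays did not overlap for these 3 lower genes, a pattern seen in this direction for 12.1% of all genes. The median log2 difference of the 10 was -0.03, against 0.00 over all genes tested. With the replicate block the calls shifted: Chrm5 and Ache fell, Chrm3 rose, and Chrm2 was no longer called. Under the block 5.64% of all genes fell and 6.05% rose. No p from an exact permutation test of 3 against 3 arrays can go below 0.1, and Chrm2, Chrm5 and Ache each had that value, two-sided.

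**Figure D1:**
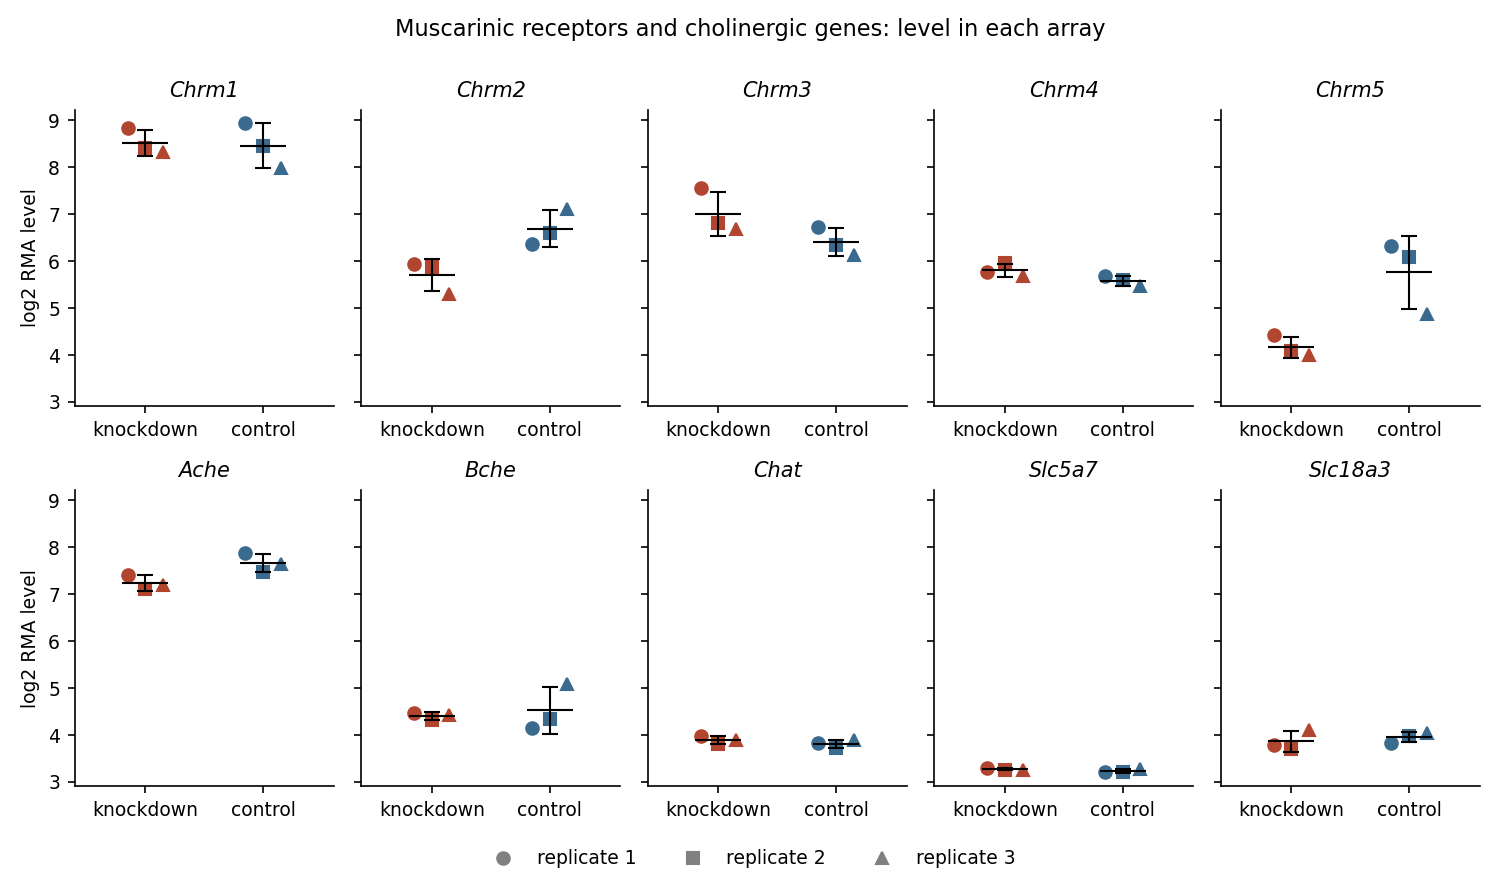
Log2 RMA level of the 10 cholinergic genes in each of the 6 arrays, knockdown left and control right, with the group mean and SD (n = 3). Chrm2, Chrm5 and Ache are lower in every knockdown array than in any control array. Levels of different genes come from different probe sets and are not comparable with each other.

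Chrm5, the Gq-coupled receptor known in brain mainly from dopamine neurons and blood vessels, had levels of 4.42, 4.09 and 3.99 in the knockdown arrays, against 6.33, 6.09 and 4.88 in the control arrays. Control replicate 3 thus lay closer to the knockdown arrays than to the other control arrays. The means were 4.17 ± 0.23 in the knockdown and 5.77 ± 0.78 in the control (SD, n = 3), a log2 difference of -1.60 (SE 0.34, 95% interval -2.38 to -0.82) or 3.03-fold (limma, adjusted p = 0.0274). With the replicate block the adjusted p was 0.00671. Same-numbered arrays differed by -1.91, -2.0 and -0.89.

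The knockdown level of Chrm5 lies below the median level of all genes tested, 5.06, where RMA compresses differences, and whether it lay above background was not tested. The call was lost without knockdown replicate 2 (adjusted p 0.105), knockdown replicate 3 (0.101), control replicate 1 (0.0546) or control replicate 2 (0.116), while the difference ran from -2.04 to -1.32 over the 6 fits that left out an array. Aven, a cell death inhibitor whose gene overlaps Chrm5 on the opposite strand, differed by 0.31 (adjusted p = 0.199), its sign opposite to that of Chrm5.

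Chrm2, the Gi-coupled receptor that serves as an autoreceptor on cholinergic terminals and is found on hippocampal interneurons, stood at 5.94, 5.87 and 5.31 in the knockdown arrays and at 6.36, 6.59 and 7.12 in the control arrays. The highest knockdown array was 0.42 below the lowest control array, both being replicate 1. Chrm2 averaged 5.71 ± 0.35 in the knockdown and 6.69 ± 0.39 in the control (SD, n = 3), and fell by 0.98 on the log2 scale (SE 0.23, 95% interval -1.51 to -0.46), which is 1.98-fold (limma, adjusted p = 0.0385). Between same-numbered arrays the difference was -0.42, -0.72 and -1.81, and with the replicate block the adjusted p was 0.0526.

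This call also depended on single arrays. Leaving out any one array other than control replicate 1 ended it, with adjusted p-values of 0.0529, 0.0936 and 0.114 without knockdown replicates 1, 2 and 3 and of 0.111 and 0.0736 without control replicates 2 and 3. After adjusting for RNA integrity the difference was -0.74 (adjusted p = 0.134). The difference stayed below 0 in each of these fits.

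Markers of inhibitory neurons are given here beside Chrm2. Of 10 measured markers 1 fell by limma, Lhx6, and 0 rose, a called share of 10% against 7.80% of all genes. These markers lie above the median level of all genes tested, 5.06, so 7.80% is not the share among genes of like level. At an unadjusted p under 0.05, 4 were lower and 0 higher, against 10% and 10.9% of all genes. With the replicate block 5 fell, where 5.64% of all genes did. They were Lhx6 (adjusted p = 0.00472), Npy (0.00767), Sst (0.00806), Maf (0.0276) and Dlx2 (0.0442). In all, 9 lay below 0, as did 11020 of the 22180 genes tested, and the median log2 difference of the markers was -0.56. Their summed level on the linear scale was 3806 to 7477 in the knockdown arrays and 5694 to 13122 in the controls, ranges that overlap, with no marker at 0. Within the knockdown arrays the mean level of the list was lowest in replicate 1, and Chrm2 was lowest in replicate 3. Within the control arrays both were lowest in replicate 1 and highest in replicate 3. The part of these markers in the Chrm2 result was not tested, and fewer cells of a type and less RNA per cell cannot be told apart in such cultures. Excitatory neuron markers had a median of 0.05, with 0 of 6 called by limma and 0 at an unadjusted p under 0.05.

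**Figure D2:**
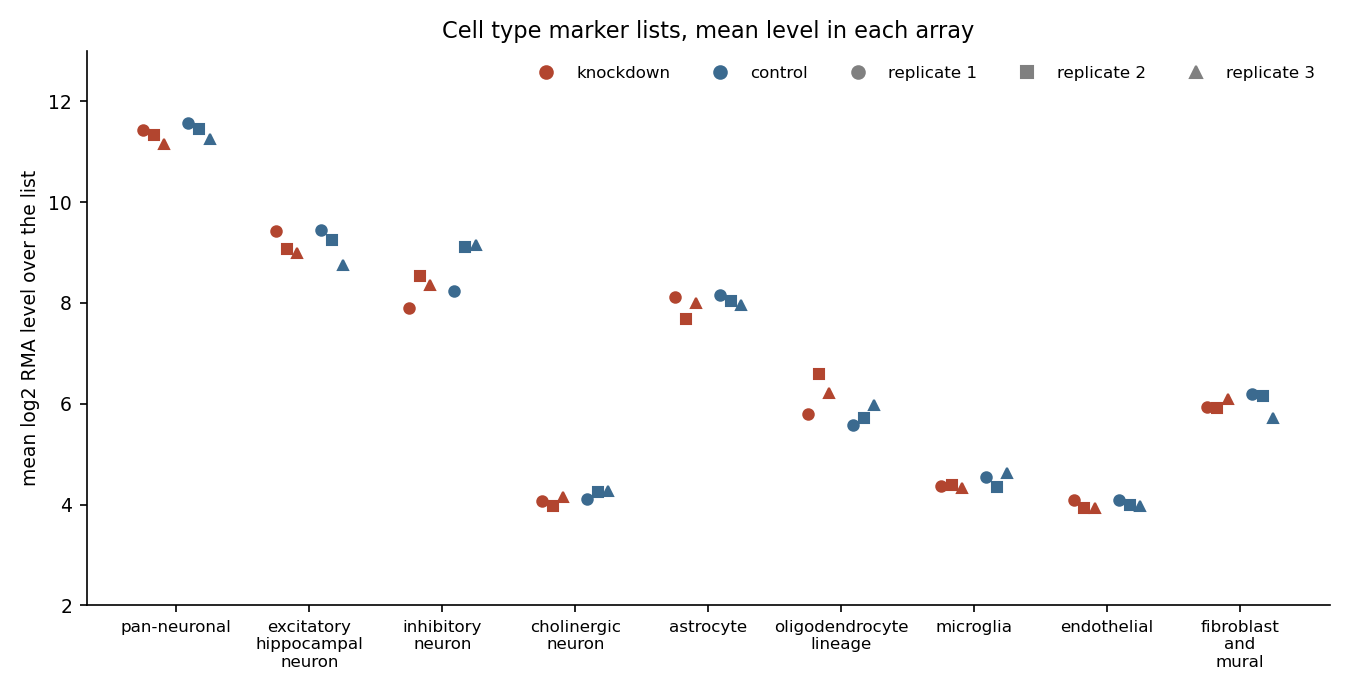
Mean log2 RMA level of each cell type marker list in each array, knockdown left of control within each list. The inhibitory neuron list runs from 7.89 to 8.52 in the knockdown arrays and from 8.23 to 9.14 in the control arrays, and the cholinergic neuron list stays near 4 in both groups.

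Mir490, a microRNA gene lying within the Chrm2 gene, was measured by a probe set of its own. Its mature forms are shown because they share the Chrm2 locus (chr6:36421763-36421782 and chr6:36421800-36421821, plus strand, RefSeq on GRCm38.p6), with the seed, bases 2 to 8, in capitals.
mmu-miR-490-5p: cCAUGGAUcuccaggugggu
mmu-miR-490-3p: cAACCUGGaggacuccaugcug

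The Mir490 probe set read 2.38, 2.64 and 2.78 in the knockdown arrays and 2.76, 2.57 and 2.63 in the controls, a log2 difference of -0.05 (limma, adjusted p = 0.872). These values lie near the bottom of the table, and the arrays of the groups overlapped. A probe set annotated to both Chrm2 and the overlapping non-coding RNA 9330158H04Rik read 3.20 to 3.42 in the knockdown and 3.14 to 3.68 in the control, and was not used for Chrm2.

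Chrm3, a Gq-coupled receptor of neurons and smooth muscle, went the other way. It had levels of 7.55, 6.81 and 6.68 in the knockdown arrays, against 6.73, 6.34 and 6.14 in the control arrays, so that the groups overlapped by a single pair of arrays. The means were 7.01 ± 0.47 in the knockdown and 6.40 ± 0.30 in the control (SD, n = 3), a log2 difference of 0.61 (SE 0.24, 95% interval 0.05 to 1.17; limma, adjusted p = 0.195). With same-numbered arrays compared, the difference was 0.82, 0.47 and 0.54, and with the replicate block its interval was 0.35 to 0.87 and the adjusted p 0.0163. Without knockdown replicate 1 the difference was 0.34 (limma, adjusted p = 0.375).

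Chrm1, the main muscarinic receptor of hippocampal pyramidal cells, was measured at 8.84, 8.42 and 8.32 in the knockdown arrays and at 8.94, 8.45 and 7.98 in the control arrays. The arrays of both groups were interleaved. The log2 difference was 0.07 (SE 0.24, 95% interval -0.48 to 0.62), and -0.21 to 0.35 with the replicate block, so a change of 1 log2 unit in either direction lay outside the interval of both fits. The dimmer Chrm1 probe set differed by 0.03, with 6.03 to 6.32 in the knockdown and 5.86 to 6.32 in the control. Chrm4, the other Gi-coupled receptor, had 5.77, 5.96 and 5.68 in the knockdown against 5.68, 5.60 and 5.47 in the control, with a log2 difference of 0.22 (SE 0.11, 95% interval -0.04 to 0.48) that did not pass. Mdk, a growth factor whose gene meets the end of Chrm4, fell by 0.66 on that scale (limma, adjusted p = 0.0431).

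Over the 6 arrays, the genes with the pattern most like that of Chrm1 were Pkp2, a desmosome protein, Gpr27, an orphan receptor, Nectin1, an adhesion molecule, Arrdc2, an arrestin relative, and Thg1l, an enzyme of transfer RNA. Their Pearson correlations with Chrm1 were 0.999, 0.997, 0.996, 0.994 and 0.993, the highest among all genes tested. All 5 share with Chrm1 a high value in replicate 1 of both groups, and their log2 differences between the groups were 0.03 to 0.12. As the best of so many genes over so few arrays, these values are a description only.

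Ache, the enzyme that ends acetylcholine signalling, stood at 7.42, 7.11 and 7.19 in the knockdown arrays and at 7.88, 7.48 and 7.64 in the control arrays. The groups did not overlap, though the gap between them was 0.06. Ache averaged 7.24 ± 0.16 in the knockdown and 7.67 ± 0.20 in the control (SD, n = 3), a log2 difference of -0.43 (SE 0.14, 95% interval -0.74 to -0.11) or 1.34-fold (limma, adjusted p = 0.111). Same-numbered arrays differed by nearly the same amount, -0.46, -0.37 and -0.45, and with the replicate block the adjusted p was 0.0314. Prima1, the membrane anchor of brain acetylcholinesterase, differed by 0.09 (adjusted p = 0.778).

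The remaining cholinergic genes lay below the median level of the table in all 6 arrays, or with Bche in all but 1. Bche, the cholinesterase of plasma and glia, had 4.48, 4.32 and 4.43 in the knockdown and 4.14, 4.35 and 5.08 in the control, where replicate 3 stood apart, with a log2 difference of -0.11 (95% interval -0.62 to 0.39). Its sign turned to 0.17 without control replicate 3. Chat read 3.80 to 3.98 in the knockdown and 3.72 to 3.89 in the control, with a log2 difference of 0.08 (95% interval -0.15 to 0.31). Slc18a3, which lies inside the Chat gene, read 3.70 to 4.11 in the knockdown and 3.84 to 4.04 in the control, and differed by -0.09 (95% interval -0.40 to 0.21). Slc5a7 read 3.25 to 3.29 in the knockdown and 3.21 to 3.28 in the control, a difference of 0.03 (95% interval -0.17 to 0.24). Whether any of these 4 was above background was not tested.

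**Figure D3:**
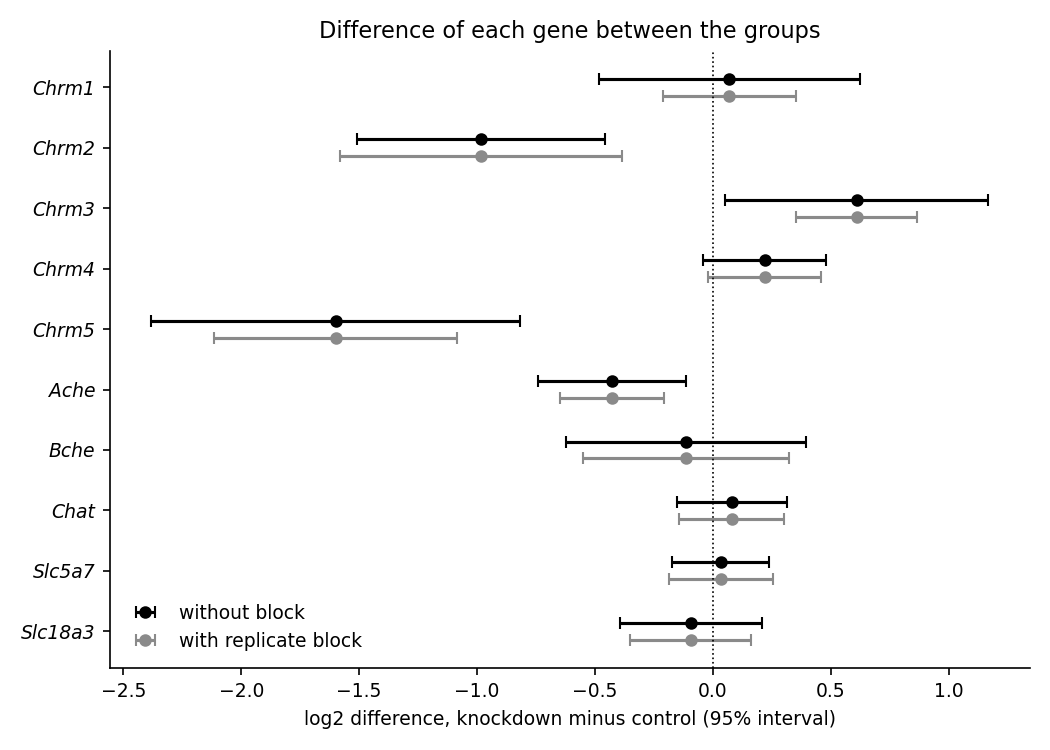
Log2 difference of each cholinergic gene, knockdown minus control, with its 95% interval by limma without (black) and with (grey) the replicate number as a block. Intervals are before adjustment for the number of genes. Those of Chrm2, Chrm5 and Ache lie below 0 and that of Chrm3 above 0 in both fits.

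Genes that mark cholinergic neurons gave no call by limma. Of 8 measured genes of that lineage, 0 were called by limma, against 7.80% of all genes. At an unadjusted p under 0.05, 1 was lower, and 1 fell with the replicate block, against 10% and 5.64% of all genes. In both cases it was Ngfr, the low-affinity neurotrophin receptor, which differed by -0.73 (limma, adjusted p = 0.0645, and 0.0359 with the block). Lhx8, the transcription factor that specifies forebrain cholinergic neurons, read 2.74 to 3.14 in the knockdown and 2.80 to 3.07 in the control. The mean over 5 cholinergic neuron markers was 4.06 ± 0.09 in the knockdown and 4.21 ± 0.09 in the control (SD, n = 3).

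Signalling partners of the receptors were then counted. Of 13 measured genes of the Gq arm, 2 fell, 0 rose (1, Gna11, at an unadjusted p under 0.05) and 11 did not pass. The called share was 15.4% against 7.80% of all genes, and the median log2 difference was -0.25. Tested alone, the 11088 genes above the median level gave 1171 higher and 1002 lower, a larger share than over all genes. Most genes of the Gq, Gi, choline supply and inhibitory marker lists lie above that level, so 7.80% is not the share among genes of like level. Both Gq arm genes that fell were potassium channels of the M-current, which receptors of that arm close. Kcnq3 read 8.33, 8.15 and 7.97 in the knockdown arrays and 9.64, 9.15 and 8.73 in the control arrays, with a log2 difference of -1.02 (SE 0.22; limma, adjusted p = 0.0274). Kcnq5 read 9.55, 9.15 and 9.17 in the knockdown and 10.53, 10.19 and 9.87 in the control, with a log2 difference of -0.91 (SE 0.18; adjusted p = 0.0233). The groups overlapped for neither channel, and a second, dimmer Kcnq5 probe set differed by -0.28. Both calls were lost when replicate 2 of either group or knockdown replicate 3 was left out (adjusted p 0.0906 to 0.103), and that of Kcnq5 also after adjusting for RNA integrity (0.0605, with a difference of -0.99) or averaging its probe sets (0.0684, with -0.595). With the block both held, at 0.00503 for Kcnq3 and 0.00460 for Kcnq5, and Gna11, a Gq-class alpha subunit, was called higher (0.0341), with a log2 difference of 0.43. Under the block 5.64% of all genes fell and 6.05% rose.

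Of 18 measured genes of the Gi arm and of receptor desensitisation, 2 rose, 1 fell and 15 did not pass. The called share was 16.7% against 7.80% of all genes, which again is not the share among genes of like level. The median log2 difference was 0.12. At an unadjusted p under 0.05, 5 were higher and 2 lower, against 10.9% and 10% of all genes. With the replicate block 3 rose and 1 fell, against 6.05% and 5.64% of all genes. Kcnj3, a subunit of the inwardly rectifying channel that Chrm2 opens, read 8.32, 8.38 and 8.41 in the knockdown arrays, against 7.04, 7.18 and 7.40 in the control arrays. It rose 2.24-fold (log2 difference 1.16, SE 0.12, adjusted p 0.00138 by limma), although a second, dim Kcnj3 probe set, at 4.07 to 4.32 in the knockdown and 4.12 to 4.33 in the control, differed by -0.03. Gnai3, an inhibitory G protein alpha subunit, read 9.25, 9.17 and 9.23 in the knockdown and 8.41, 8.44 and 8.39 in the control, a 1.75-fold rise (adjusted p = 0.00213). Neither gene lost its call in any of the 15 alternative fits, but with both probe sets averaged the Kcnj3 difference was 0.565.

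Grk5, a kinase that desensitises G protein-coupled receptors, was the gene of this arm that fell. It read 6.48, 6.15 and 5.97 in the knockdown arrays and 6.88, 6.83 and 6.91 in the control arrays, a log2 difference of -0.67 (SE 0.14; limma, adjusted p = 0.0238). Its call was lost without any one array other than knockdown replicate 1 (0.0529 to 0.0956) and after adjusting for RNA integrity (0.109). The difference was then -0.56 to -0.70 and -0.59. The beta-arrestin Arrb2 differed by 0.40 (adjusted p = 0.0509, and 0.0452 with the block).

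**Figure D4:**
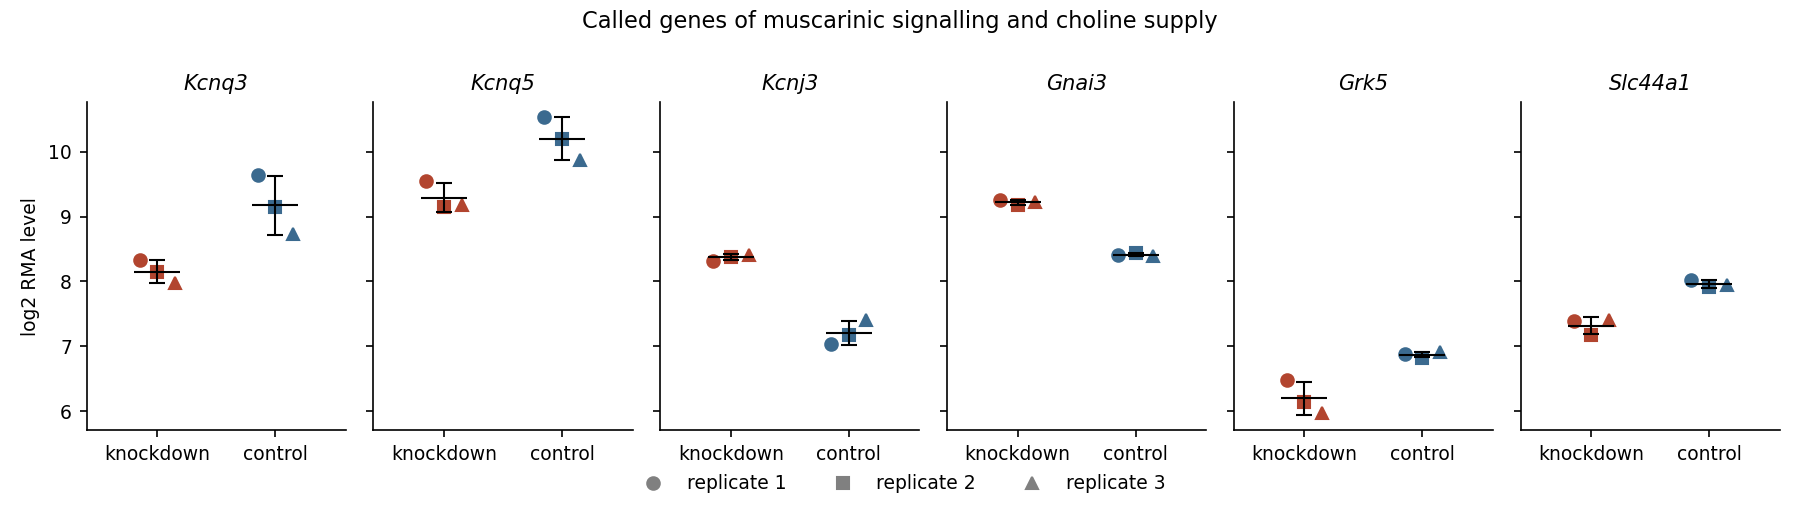
Log2 RMA level in each array of the 6 called genes of muscarinic signalling and choline supply, knockdown left and control right, with the group mean and SD (n = 3). For each gene the groups do not overlap; Kcnj3 and Gnai3 are higher in the knockdown and the other 4 lower.

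In the choline supply list the called share was 12.5%, against 7.80% of all genes, again not the share among genes of like level. Of 8 measured genes of choline uptake, choline phosphorylation, acetyl-CoA supply and cholinesterase anchoring, 1 fell, 0 rose (0 also at an unadjusted p under 0.05) and 7 did not pass by limma. Slc44a1, a choline transporter of the plasma membrane and mitochondria, read 7.39, 7.17 and 7.40 in the knockdown arrays and 8.02, 7.91 and 7.95 in the controls. It fell by 0.64 on the log2 scale (SE 0.10, adjusted p 0.00963), and the call was lost in 1 of the 15 alternatives, adjustment for RNA integrity (0.0526, with a difference of -0.62). With the replicate block 2 genes of the list rose, where 6.05% of all genes did. They were Slc44a5, a relative of Slc44a1, by 0.65 (0.0188) and Acly, which makes cytosolic acetyl-CoA, by 0.41 (0.0444). Without the block neither was called (limma, adjusted p 0.393 for each), and the arrays of the groups overlapped for both.

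Of the 16 nicotinic subunits, the ion channel side of acetylcholine signalling, 2 fell and 0 rose, a called share of 12.5% against 7.80% of all genes. At an unadjusted p under 0.05, 4 were lower and 1, Chrna4, higher, against 10% and 10.9% of all genes. With the replicate block 3 fell and 1 rose, against 5.64% and 6.05% of all genes. Chrna6 joined those that fell (limma, adjusted p = 0.112, and 0.0488 with the block), and Chrna4 was the one that rose (0.15 and 0.0362). Chrna7 read 8.44, 7.93 and 7.85 in the knockdown and 9.79, 9.66 and 9.73 in the control, 3.15-fold lower (adjusted p 0.00126), and Chrnb2 differed by -0.71 on the log2 scale (0.0285). The Chrnb2 call was lost without any one array other than knockdown replicate 1 (0.0543 to 0.104) and after adjusting for RNA integrity (0.114), with differences of -0.81 to -0.57.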

How the data were processed

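RNA of 6 cultures, 3 knockdown and 3 control, was read on 1 Affymetrix array each, after whole-transcript amplification and biotin labelling, per the labels' protocols. The submitters' processing notes name RMA and Affymetrix Expression Console 1.2.1.20, and the deposited table holds log2 levels, 1 row for each probe set. Because RMA forces every array onto a common distribution after background correction, it hides any shift common to most genes and compresses low values. No detection call or probe intensity entered the work, precision is limited by the number of arrays, and the annotation's genome build was not stated in the sources used. Of 41345 probe sets, 23521 had 1 gene symbol, 1814 several and 16010 none. The brightest probe set by its mean over all arrays stood for each of 22180 genes.

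Knockdown minus control was fitted over all genes with limma 3.58.1 (lmFit and eBayes, R 4.3.3), with Benjamini-Hochberg adjustment over all of them and a call at an adjusted p under 0.05. Intervals are 95% and not adjusted. The fit without the block was also run on simulated arrays that varied independently. Those lacked the shared deviations of same-numbered arrays, and the block fit was not simulated. A RefSeq table of GRCm38.p6 gave overlapping genes, and its promoter and miRNA tables the sequences. Figures were drawn with matplotlib 3.10.9.

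The replicate numbers stand in the labels. Deviations from group means correlated at 0.43, 0.12 and 0.37 for same-numbered arrays and at -0.38 to 0.06 for the others. As all 3 exceeded 0.1, the numbers were taken to pair the arrays, a pairing found in the data. Where the block changes the call of a named gene, its value is printed next to the result.

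The genes, partner lists and marker lists were chosen with earlier results of these data known. Named were the 10 cholinergic genes, Diras2, the called genes of each partner list, at most 4, and the 5 genes most like the cholinergic gene with the highest level. Promoter motifs, overlapping genes and uncalled partners named with values were chosen after values were seen.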

Additional observations from a re-analysis of the deposited data

How the results depend on the processing

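In 15 alternative fits the replicate number was a block, 1 of the 6 arrays was left out, values were quantile normalised or median centred, dim genes (below the median level) were dropped, arrays were weighted, RNA integrity was adjusted for, probe sets of a gene were averaged, or the variance prior followed intensity or was robust. Over all genes tested, 924 were called higher and 807 lower. With the replicate block these numbers were 1341 and 1252, with array weights 1401 and 1302, and after adjusting for RNA integrity 402 and 356. Without single arrays 383 to 800 genes were called higher and 306 to 687 lower, the lowest without control replicate 2. The cause of these shifts was not tested. Of the 10 cholinergic genes 0 rose and 2 fell. With the replicate block 1 rose, and 2 fell, Ache in place of Chrm2. The number that fell was 1 without dim genes, where Chrm5, Bche, Chat, Slc5a7 and Slc18a3 were no longer among the genes tested, 1 after adjusting for RNA integrity, and 0 to 1 without single arrays (0 that rose). It was 0 when replicate 2 of either group or knockdown replicate 3 was left out. Chrm1 changed sign, with differences of -0.087 without knockdown replicate 1, -0.17 without control replicate 3 and -0.086 after adjusting for RNA integrity, over a range of -0.17 to 0.31 when single arrays were left out. Bche did so without control replicate 3 (0.165) and after adjusting for RNA integrity (0.164), and ran from -0.305 to 0.165 without single arrays. The differences of the other 8 kept their sign in each alternative that tested them. Diras2 was called lower throughout, with a difference of -3.88 to -3.33. Of the 63 measured genes of the partner lists 8 were called, 15 with the replicate block, 4 after adjusting for RNA integrity and 4 to 8 without single arrays. Among the 10 cholinergic genes and the 8 called partners, the block ended the call of Chrm2 alone and added those of Chrm3 and Ache.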
